A study of Mus musculus with 16 samples.

Results

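Transcripts of 6 genes of the Stat family, Stat2, Stat3, Stat4, Stat5a, Stat5b and Stat6, were followed in mouse macrophages (BMDMs), which are obtained by culturing bone marrow cells. The genes were chosen by name, as members of 1 gene family, and were found among the 55487 genes of the deposited count table by matching their Ensembl identifiers to symbols. RNA-seq of 16 samples in 6 groups was available. All samples were labelled as macrophages of wild-type (WT) Balb/c mice at 8 weeks of age. The groups were DMEM (plain culture medium, 2 samples), DMEM + Rux (3 samples), CM (conditioned medium of the 4T1 mouse mammary tumor cell line, 3 samples), CM + Rux (3 samples, labelled 4 h), CM + Rux + IKK-16 (3 samples) and CM + Rux 2 h (2 samples, labelled 2 h). Rux is ruxolitinib, an inhibitor of the kinases JAK1 and JAK2, given at 0.5 µM with CM. IKK-16, an inhibitor of the IKK kinases upstream of NF-κB, was given at 0.8 µM. The study describes 4 h of treatment after serum starvation with ruxolitinib in the pre-treatment. What the 2 h label counts is not given in the sources used here, and neither is the ruxolitinib dose in DMEM. Nothing in the labels says whether replicates came from separate cultures or mice, so p-values measure the spread between these samples, which may be technical. In bulk RNA, fewer cells of a type and less RNA per cell cannot be told apart.

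STAT proteins wait in the cytoplasm until a cytokine receptor and its JAK kinases phosphorylate them, and then enter the nucleus as dimers that bind DNA. STAT2 acts mainly with IRF9 in ISGF3, the complex that type I interferons activate and that binds the ISRE motif of antiviral genes. STAT3 serves the IL-6 family and IL-10, STAT4 serves IL-12 and is best known from T and NK cells, STAT5A and STAT5B serve GM-CSF, IL-3 and related cytokines, and STAT6 serves IL-4 and IL-13. The transcripts of several STAT genes are themselves induced by cytokines, while phosphorylation of the proteins is not visible in RNA.

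The genes lie on 3 chromosomes of the mouse genome GRCm38. Stat4 (ENSMUSG00000062939) is on the plus strand of chromosome 1, from 51987148 to 52107189. Stat6 (ENSMUSG00000002147, 127642986 to 127660957) and Stat2 (ENSMUSG00000040033, 128270559 to 128292849) are both on the plus strand of chromosome 10, 609.6 kb apart. Stat5b (ENSMUSG00000020919, minus strand, 100780731 to 100850724), Stat5a (ENSMUSG00000004043, plus strand, 100859351 to 100885169) and Stat3 (ENSMUSG00000004040, minus strand, 100885098 to 100939540) follow each other on chromosome 11. Stat5b and Stat5a stand head to head with 8626 bp between them, and the ends of Stat5a and Stat3 overlap by 72 bp on opposite strands. Counting was stranded, so reads of that overlap were assigned by strand. The coding sequences of Stat5a and Stat5b, taken as the longest open reading frame of any annotated transcript, were identical at 90.7% of 2294 aligned bases, whereas the other 14 pairs were identical at 54.0% to 61.3%. Of the distinct 100-base stretches of their transcripts, 3.44% for Stat5a and 4.79% for Stat5b occurred in the other gene, and none of the other 4 genes shared such a stretch with a member. Fragments of Stat5a and Stat5b in those stretches could have been lost, since fragments with several alignments were not counted.

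The sequences before the start sites of Stat2, Stat3, Stat4 and Stat5a are shown because these 4 genes were called in the comparisons with CM or ruxolitinib. They come from the RefSeq promoter table (GRCm38.p6), in which all 6 genes matched with 9 start sites, and are written 5′ to 3′ on the gene's strand without bases annotated as exon. Capitals mark matches on either strand to 4 motifs: GAS, the STAT dimer motif, as TTCNNNGAA; its form with 4 central bases, TTCNNNNGAA; the ISRE core, GAAANNGAAA; and the NF-κB consensus. The Stat2 window is chr10:128270248-128270497 (plus strand), and that of the downstream Stat4 start site is chr1:52007990-52008239 (plus). That of Stat3 is chr11:100939541-100939790 (minus), and the part of the downstream Stat5a window without annotated exon is chr11:100860234-100860344 (plus). For Stat4 and Stat5a only the downstream window is shown, which held a match, while the upstream one held none.
Stat2: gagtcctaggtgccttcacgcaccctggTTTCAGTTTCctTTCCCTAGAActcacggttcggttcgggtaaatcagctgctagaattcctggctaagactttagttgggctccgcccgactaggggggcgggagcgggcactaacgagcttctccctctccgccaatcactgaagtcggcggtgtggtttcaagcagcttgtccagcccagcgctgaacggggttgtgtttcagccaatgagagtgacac
Stat4: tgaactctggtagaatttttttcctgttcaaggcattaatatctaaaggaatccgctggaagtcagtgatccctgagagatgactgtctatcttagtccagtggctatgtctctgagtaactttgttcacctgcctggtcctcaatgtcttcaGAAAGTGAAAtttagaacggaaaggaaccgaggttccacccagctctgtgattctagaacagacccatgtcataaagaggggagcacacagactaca
Stat5a: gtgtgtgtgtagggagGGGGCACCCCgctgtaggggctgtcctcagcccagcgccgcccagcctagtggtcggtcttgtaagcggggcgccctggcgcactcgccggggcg
Stat3: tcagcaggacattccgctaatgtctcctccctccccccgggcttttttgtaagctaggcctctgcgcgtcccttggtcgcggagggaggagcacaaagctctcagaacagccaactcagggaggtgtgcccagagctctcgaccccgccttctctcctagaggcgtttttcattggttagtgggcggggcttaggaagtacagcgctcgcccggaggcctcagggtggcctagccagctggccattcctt

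The Stat2 window held an ISRE core, 222 to 213 bases before the start site, and, without overlap, a GAS with 4 central bases at 210 to 201. The downstream Stat4 window held an ISRE core at 97 to 88 bases before its start site, and the downstream Stat5a window held an NF-κB match at 234 to 225. No match was found in the Stat3 window, in the windows of Stat5b and Stat6, or at the upstream start sites of Stat4 and Stat5a. Of 32851 windows of 250 bases in the table, 2.98% held an ISRE core, 7.02% a GAS with 3 central bases, 5.85% a GAS with 4 and 7.25% an NF-κB match. A match is a match of letters, and binding was not measured.

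Levels are given as CPM, the counts of a gene relative to its library total after scaling by relative log expression (RLE). The deposited counts summed to 18449388 to 46215853 per sample, and the members had between 68 counts (Stat4 in a DMEM + Rux sample) and 26147 counts (Stat3 in a CM sample), so counting error was small except for Stat4 in DMEM. All 6 members passed the filter on low counts, which left 12372 genes for testing. A gene was called where the edgeR quasi-likelihood test gave an adjusted p under 0.05 (Benjamini-Hochberg over the 12372 genes) and the log2 fold change was beyond 0.5. All 10 macrophage markers examined were detected, with a summed level of 40370 to 57300 CPM per sample, led by Lyz2. Defining markers of T and NK cells were at 0 in every sample (Cd3g, Trac, Trbc2, Cd8a, Ncr1 and Gzma), and only Cd4 and Lck of that list of 13 exceeded 1 CPM. The summed levels of the lists were 6.82 to 14.8 CPM for T and NK cells, 0.222 to 1.38 for B cells, 2.21 to 8.23 for neutrophils, 1.01 to 13.5 for dendritic cells, 0.0409 to 1.501 for epithelial cells and 15.7 to 33.7 for fibroblasts.

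**Figure D1:**
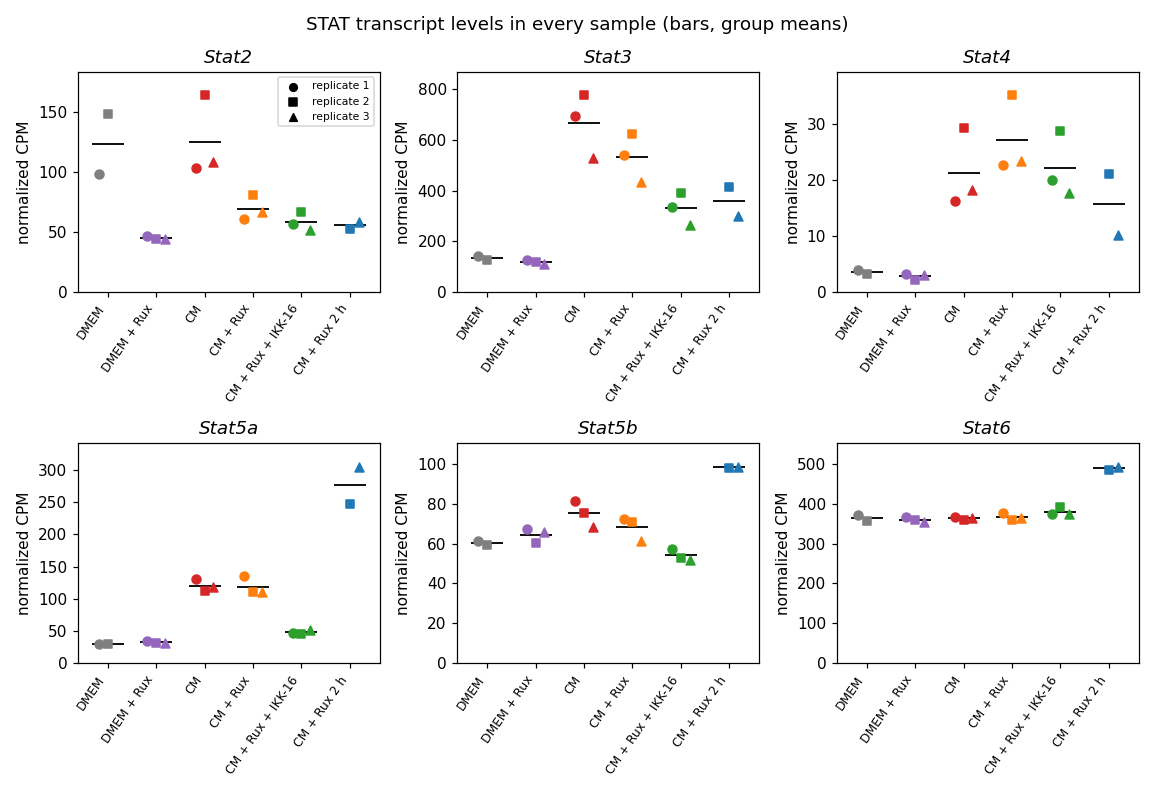
Normalized CPM (linear axis from 0) of the 6 genes in each of the 16 samples, with symbols for the replicate number and bars for group means. Stat3, Stat4 and Stat5a are higher in all groups with CM than in DMEM, Stat2 is lower in all groups with ruxolitinib, and Stat5a, Stat5b and Stat6 are highest in the samples labelled 2 h.

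The question of the first comparison was what the soluble factors of the tumor cells do to the macrophages. In CM against DMEM, 3 of the 6 genes were called higher and 0 lower, beside 20.9% of all tested genes called higher and 24.1% called lower. The 3 were Stat3, Stat4 and Stat5a, with rises of 4.999-fold, 6.04-fold and 3.98-fold. Stat2 and Stat6 showed no detectable change.

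Stat3 had 140.5 and 126.4 CPM in the 2 DMEM samples and 696, 776 and 529 CPM in the 3 CM samples. Every CM sample lay far above both DMEM samples. The log2 fold change was 2.32 ± 0.21 (SE; edgeR adjusted p = 6.741e-07). Stat5a had 30.0 and 30.3 CPM in DMEM and 131, 111 and 118 CPM in CM. Here the spread within each group was small against the gap, with a log2 fold change of 1.99 ± 0.12 (edgeR adjusted p = 2.085e-08). Stat4 was scarce in DMEM, at 3.84 and 3.19 CPM, and reached 16.3, 29.3 and 18.1 CPM in CM. The groups did not overlap, and the log2 fold change was 2.59 ± 0.38 (edgeR adjusted p = 4.228e-05). The rise of Stat4 was measured in samples in which Cd3g, Trac and Trbc2 were at 0, and the summed T and NK markers were 8.91 to 9.18 CPM in DMEM and 7.87 to 11.8 CPM in CM. The summed neutrophil markers were 2.21 to 3.31 CPM in DMEM and 7.51 to 8.17 CPM in CM, with Ly6g at 0 in every sample. Of that list only Mmp8 exceeded 1 CPM in any sample, at up to 8.06 CPM. Epithelial markers summed to 0.0409 to 0.118 CPM in DMEM and 1.02 to 1.501 CPM in CM. Of these, Krt5 and Krt14 were at 0 in every sample. The others were detected, with highest values of 0.89 CPM for Cdh1, 0.593 for Krt18, 0.33 for Krt8, 0.285 for Cldn7, 0.117 for Epcam and 0.073 for Krt19. Dendritic cell markers summed to 1.51 to 1.92 CPM in DMEM and 2.43 to 3.38 CPM in CM, and B cell markers to 1.24 to 1.31 and 0.222 to 0.297 CPM. The part of these lists in the 3 rises was not tested.

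The other 3 genes moved little. Stat5b, the near copy of Stat5a, had 61.4 and 59.5 CPM in DMEM and 81.5, 75.5 and 68.6 CPM in CM. Its log2 fold change of 0.32 ± 0.09 passed the test (edgeR adjusted p = 0.00735) but lay below the fold limit. Stat6 was the steadiest member, at 371.5 and 357 CPM in DMEM and 366, 360.3 and 363 CPM in CM, and its log2 fold change had a 95% interval from -0.13 to 0.12. For Stat2 the interval was wider, from -0.40 to 0.45, since the samples ran from 98.4 to 148.5 CPM in DMEM and from 103.5 to 163.6 CPM in CM.

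These fold changes depend on the scaling in their size. Scaling by RLE moved the median of all genes by 0.31 on the log2 scale in CM against DMEM relative to total counts alone, and the share of all calls that were higher was 46.4% with RLE and 25.01% with total counts. Stat3, Stat4 and Stat5a were called higher under both, while with total counts alone Stat5b had a log2 fold change of 0.01, Stat2 of -0.29 and Stat6 of -0.31. That of Stat6 then passed the test (edgeR adjusted p = 0.001481) below the fold limit.

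**Figure D2:**
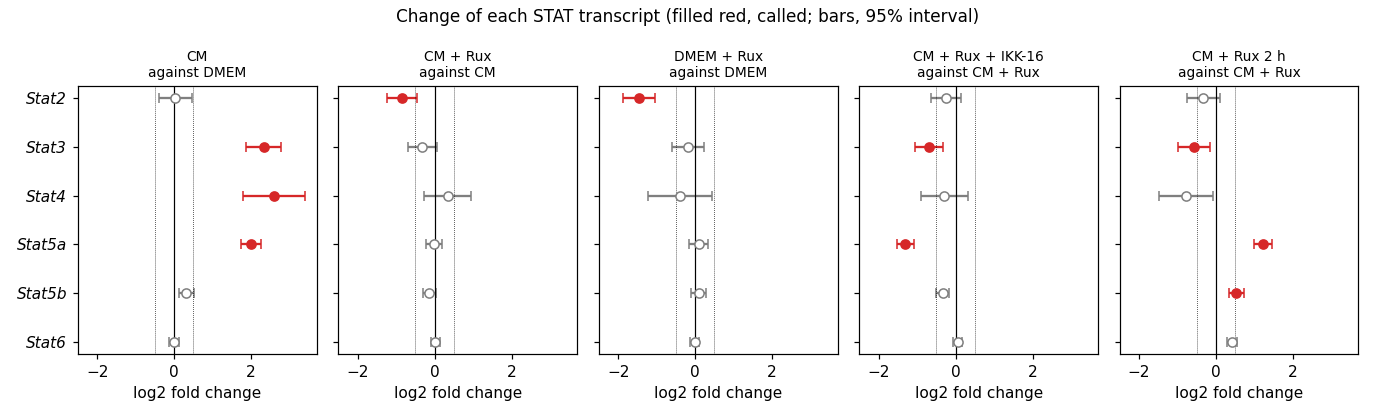
Log2 fold change of each gene (points) with its 95% interval (bars) in 5 comparisons, with dotted lines at the fold limit of 0.5 in either direction and filled red points for calls. Stat2 is the gene called in both comparisons of ruxolitinib, and Stat3, Stat4 and Stat5a are those called in CM.

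JAK1/2 inhibition was compared with and without tumor medium. Stat2 was called lower in both cases, falling 1.81-fold in CM and 2.75-fold in DMEM, and was the only member called in either. In CM + Rux against CM, 1.2% of all tested genes were called higher and 2.13% lower. In DMEM + Rux against DMEM, 0.97% were called lower and 0% higher. That count of 0 genes came from edgeR, with 181 genes higher at an unadjusted p under 0.05, and DESeq2 also called 0 higher.

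In DMEM, Stat2 fell from 98.4 and 148.5 CPM to 46.8, 44.0 and 43.9 CPM with ruxolitinib. The 3 treated samples lay close together and below both untreated samples. The log2 fold change was -1.46 ± 0.20 (edgeR adjusted p = 0.0008526). In CM, Stat2 had 103.5, 163.6 and 108 CPM without ruxolitinib and 60.9, 80.6 and 66.6 CPM with it. Again the groups did not overlap, with replicate 2 the highest in both, and the log2 fold change was -0.85 ± 0.18 (edgeR adjusted p = 0.01354). This call in CM was lost in a model of only the 2 groups (adjusted p = 0.05637) and without CM replicate 2, CM + Rux replicate 1 or CM + Rux replicate 3 (edgeR adjusted p of 0.06495, 0.08102 and 0.05728), while the direction held. With the replicate number as a block, Stat2 stayed the only member called (edgeR adjusted p = 0.0006506), and the number of all genes called rose from 412 to 745.

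The fall of Stat2 was 0.61 ± 0.27 smaller on the log2 scale in CM than in DMEM. This difference was not called (edgeR adjusted p = 0.5076) and had a 95% interval from 0.03 to 1.18. Among all tested genes, 0.234% had a higher and 0.178% a lower effect of ruxolitinib in CM. Of the 6 members, 0 were called for this difference by edgeR, 1 (Stat2) had an unadjusted p under 0.05, and DESeq2 called 0.

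The other members showed little under ruxolitinib. Stat3 had 542, 624 and 434.5 CPM in CM + Rux, overlapping the range in CM, with a log2 fold change of -0.32 and a 95% interval from -0.69 to 0.05. It was lower with ruxolitinib in each of the 3 pairs of same-numbered samples, and with the replicate number as a block the difference passed the test (edgeR adjusted p = 0.03049) below the fold limit. In DMEM its values with ruxolitinib were 124, 116 and 111.5 CPM, with a log2 fold change of -0.19 and an interval from -0.61 to 0.23. Stat5a had 135.6, 110.3 and 110.1 CPM in CM + Rux, and its interval against CM ran from -0.23 to 0.20. Stat6 had an interval from -0.10 to 0.13 in CM and from -0.14 to 0.11 in DMEM. For Stat4, with 22.7, 35.1 and 23.4 CPM in CM + Rux, the interval was wide, from -0.27 to 0.96.

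Against DMEM, CM + Rux showed what remained of the response to CM under JAK1/2 inhibition. Stat3, Stat4 and Stat5a were again called higher and Stat2 was called lower, beside 20.4% of all tested genes called higher and 23.2% lower. The log2 fold changes were 1.999 ± 0.209 for Stat3, 2.94 ± 0.38 for Stat4, 1.98 ± 0.12 for Stat5a and -0.83 ± 0.20 for Stat2 (edgeR adjusted p of 2.315e-06, 1.532e-05, 2.276e-08 and 0.002313). This comparison shares its DMEM samples with CM against DMEM. The Stat2 call was lost without DMEM replicate 2, which had the higher Stat2 level of the pair (log2 fold change -0.50, edgeR adjusted p = 0.07187). Here RLE moved the median of all genes by 0.29 relative to total counts alone, and 46.8% of all calls were higher with RLE and 26.1% with total counts.

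IKK-16 was added to ask what inhibition of NF-κB signaling changes in macrophages under CM and ruxolitinib. Stat5a fell 2.49-fold and Stat3 fell 1.62-fold, and no member was called higher. Among all tested genes, 4.07% were called higher and 3.66% lower, and 52.7% of the calls were higher with RLE and 67.5% with total counts alone. 

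Stat5a had 45.9, 45.8 and 51.6 CPM in CM + Rux + IKK-16, against the 110.1 to 135.6 CPM of CM + Rux. The samples with IKK-16 lay within a narrow range, below every CM + Rux sample and above every DMEM sample. The log2 fold change was -1.31 ± 0.10 (edgeR adjusted p = 9.534e-06), and it stayed between -1.37 and -1.21 over 15 alternative settings, called in each. Stat5b, transcribed away from Stat5a across 8626 bp, had 57.3, 53.0 and 51.9 CPM, and its log2 fold change of -0.34 ± 0.08 passed the test (edgeR adjusted p = 0.01198) but not the fold limit. All 3 of its samples were below those of DMEM (59.5 and 61.4 CPM).

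Stat3 had 336, 389 and 266 CPM with IKK-16, below all CM + Rux samples. Its log2 fold change was -0.69 ± 0.17 (edgeR adjusted p = 0.01647). The call was lost without CM + Rux replicate 2, CM + Rux + IKK-16 replicate 1 or CM + Rux + IKK-16 replicate 3 (edgeR adjusted p of 0.06837, 0.05277 and 0.07213). Stat4 had 20.03, 28.8 and 17.6 CPM with IKK-16, overlapping CM + Rux, and its interval ran from -0.90 to 0.31. Stat2 had 56.6, 66.3 and 51.7 CPM (interval from -0.64 to 0.13), and Stat6 had 374, 393 and 374 CPM (interval from -0.06 to 0.16).

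The samples labelled 2 h differed from the CM + Rux samples labelled 4 h most in Stat5a, which was 2.33-fold higher. Stat5b was also called higher and Stat3 lower, beside 12.6% of all tested genes called higher and 10.7% lower. Stat5a had 247 and 305 CPM in the 2 h samples, above every other sample of the series. The log2 fold change was 1.22 ± 0.11 (edgeR adjusted p = 2.774e-06). Stat5b had 98.1 and 98.7 CPM, again the highest of the series, with a log2 fold change of 0.53 ± 0.09 (edgeR adjusted p = 0.0004107), just past the fold limit, and 0.46 with total counts alone or without CM + Rux replicate 3. Stat6 had 485.5 and 493 CPM against 354 to 393 CPM in all other samples, and its log2 fold change of 0.42 ± 0.06 passed the test (edgeR adjusted p = 0.0001104) below the fold limit.

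Stat3 was at 415 and 301 CPM in the 2 h samples, with a log2 fold change of -0.58 ± 0.20 against CM + Rux (edgeR adjusted p = 0.03309). That call was lost in 4 settings: a model of only the groups compared (log2 fold change -0.55) and without CM + Rux 2 h replicate 3 (-0.36), CM + Rux replicate 1 (-0.56) or CM + Rux replicate 2 (-0.45), with edgeR adjusted p of 0.06577, 0.2841, 0.06751 and 0.1029. Stat4 had 21.1 and 10.1 CPM and a log2 fold change of -0.77 ± 0.33 (edgeR adjusted p = 0.0773), with the samples of the 2 h group far apart. It was called with the replicate number as a block (log2 fold change -0.86, edgeR adjusted p = 0.007423) and without 2 h replicate 2 (-1.43, adjusted p = 0.01833), while without 2 h replicate 3 it was -0.36 (adjusted p = 0.4892), so the value rests on which 2 h sample is used. The summed dendritic cell markers were 9.19 to 13.5 CPM in the 2 h samples and 3.26 to 3.46 CPM in CM + Rux. Of these 6 markers only Zbtb46 (highest 12.3 CPM) and Ccr9 (highest 1.27 CPM) exceeded 1 CPM in any sample. The part of these markers in the differences was not tested.

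Against CM without inhibitor, the 2 h samples had Stat5a called higher (log2 fold change 1.21 ± 0.11, edgeR adjusted p = 2.289e-06), and Stat2 (-1.18 ± 0.21, adjusted p = 0.000468) and Stat3 (-0.90 ± 0.20, adjusted p = 0.00248) called lower. No sample of CM without inhibitor was labelled 2 h, so ruxolitinib and the time label cannot be told apart here. In this comparison 14.6% of all tested genes were called higher and 13.3% lower. Stat2 had 52.6 and 57.8 CPM at 2 h, below every CM + Rux sample labelled 4 h. Against those its log2 fold change was -0.33, with an interval from -0.77 to 0.11, and with the replicate number as a block it was -0.39 and passed the test (edgeR adjusted p = 0.04804) below the fold limit.

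Ordered by group mean, the members had different profiles. Stat2 was highest in CM (125 CPM) and DMEM (123 CPM), which overlapped, and then came the ruxolitinib groups, of which CM + Rux (69.4 CPM), CM + Rux + IKK-16 (58.2 CPM) and CM + Rux 2 h (55.2 CPM) overlapped with their neighbours, while DMEM + Rux (44.9 CPM) stood below. Stat3 ran from CM (667 CPM) and CM + Rux (533 CPM), which overlapped, through CM + Rux 2 h (358 CPM) and CM + Rux + IKK-16 (330.2 CPM), which also overlapped, to DMEM (133 CPM) and DMEM + Rux (117 CPM). Stat4 had 4 overlapping groups with CM, from 27.1 CPM in CM + Rux to 15.6 CPM at 2 h, above DMEM (3.51 CPM) and DMEM + Rux (2.73 CPM). Stat5a ran from the 2 h samples (276 CPM) through CM (119.8 CPM) and CM + Rux (118.7 CPM), which overlapped, to CM + Rux + IKK-16 (47.8 CPM), DMEM + Rux (32.2 CPM) and DMEM (30.1 CPM). Outside the 2 h group, Stat5b covered only 54.1 to 75.2 CPM and Stat6 only 360.2 to 380.2 CPM.

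Which STAT transcript was the most abundant was compared as counts per kilobase of exon, each as a share of the 6 genes together within a sample. Stat6 held 61.95% ± 2.80 (SD, n = 2) in DMEM and 39.6% ± 3.8 (SD, n = 3) in CM, the largest mean share in every group. In CM replicate 2 it was nearly level with Stat3 (35.9% and 35.8%), and in counts not divided by length Stat3 held more than Stat6 in CM and CM + Rux. Stat3 held 10.49% ± 0.96 in DMEM and 33.2% ± 3.5 in CM. The CPM of Stat6 was level between these groups after RLE scaling, while with total counts alone its log2 fold change was -0.31. The share does not depend on the scaling, and it fell as the other members together rose relative to Stat6. Stat4 was the smallest share in every group, from 0.594% in DMEM + Rux to 3.72% in CM + Rux.

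The ratio of Stat5a to Stat5b per kilobase, which does not depend on library scaling, set the paralogs apart. It was 0.387 ± 0.011 (SD, n = 2) in DMEM and 0.388 ± 0.015 (n = 3) in DMEM + Rux, so Stat5b was the more abundant transcript without CM. In CM it was 1.24 ± 0.09 (n = 3) and in CM + Rux 1.35 ± 0.13 (n = 3), with Stat5a ahead in all 6 of these samples. With IKK-16 it was 0.689 ± 0.076 (n = 3), below 1 in all 3 samples, and in the 2 h samples 2.18 ± 0.31 (n = 2). The ratios of the DMEM groups, the IKK-16 group and the other CM groups did not overlap. This ratio was described without a test.

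**Figure D3:**
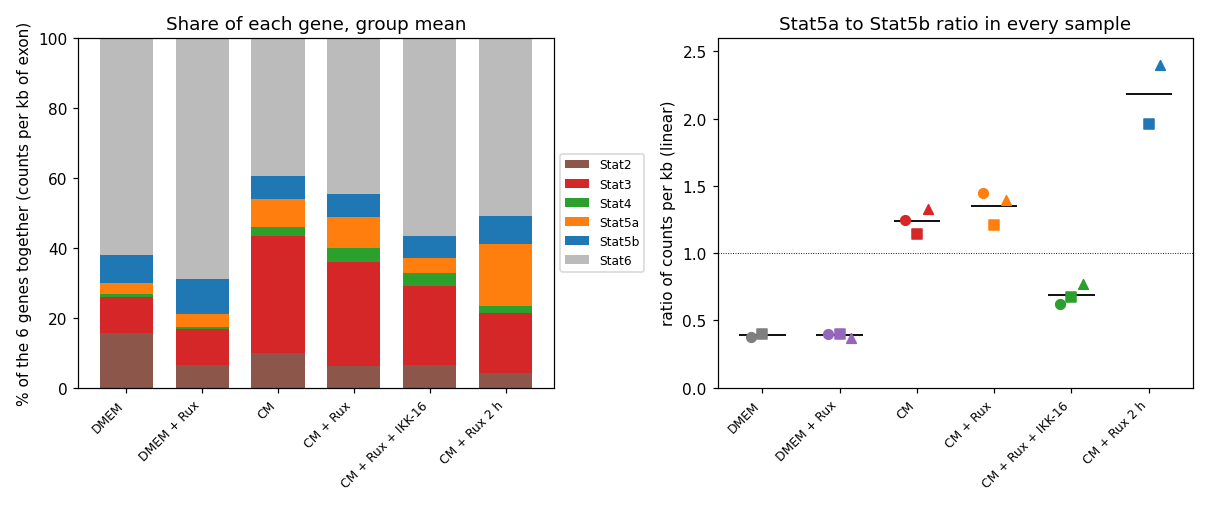
Left, mean share of each gene among the 6 genes together, in percent of counts per kilobase of exon, stacked by group. Right, ratio of Stat5a to Stat5b per kilobase in every sample (symbols as replicate numbers 1 circle, 2 square, 3 triangle; bars, group means; dotted line, equal levels), which lies near 0.39 in both DMEM groups, above 1 in CM, CM + Rux and the 2 h samples, and below 1 with IKK-16.

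Likeness of profiles was measured as the root-mean-square difference of centred mean log2 CPM over the 6 groups, among 8043 genes whose average level reached 10 CPM. Among the members, Stat5b and Stat6 were the most alike (0.18), followed by Stat3 and Stat4 (0.42), whereas the neighbours Stat5a and Stat5b differed by 0.92. Among the 3 genes nearest to Stat2 were Ifih1 (0.09), a sensor of double-stranded RNA, and Adar (0.17), an RNA-editing enzyme. Nearest to Stat3 were Msr1 (0.07), a scavenger receptor, Psma6 (0.12), a proteasome subunit, and Glrx (0.13), a glutaredoxin. St7 (0.17), Ets2 (0.18) and Tnfrsf1b (0.18), a TNF receptor, were nearest to Stat4. Ier2 (0.09), an immediate-early gene, Noct (0.19) and Plek (0.27) were nearest to Stat5a. Tsc22d4 (0.07), Map3k11 (0.08) and Rap1b (0.09) were nearest to Stat5b, and Nenf, Twistnb and Rps6kc1 (each 0.03) to Stat6. With 6 groups such a distance is a description of these samples.

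Other genes of the pathway were taken from 10 lists that hold 179 genes, of which 14 are in more than 1 list. Genes that passed the filter on low counts only through samples with CM had to be higher there, so counts for CM against DMEM are given for genes that also passed it in the DMEM and DMEM + Rux samples alone. Of the 4 JAK kinases, 3 were called higher in CM against DMEM, beside 20.9% of all genes tested. Jak2 rose the most. Its mean was 60.7 ± 15.5 CPM in the DMEM samples (SD, n = 2) against 731 ± 31 CPM in CM (SD, n = 3), with a log2 fold change of 3.59 ± 0.15 (SE). Jak3 rose by 1.24 ± 0.13 and Jak1 by 0.69 ± 0.09, while Tyk2 had a log2 fold change of -0.04 ± 0.11 (edgeR adjusted p of 1.012e-09, 2.674e-06, 1.676e-05 and 0.7959 in this order). The median of the list was 0.97, beside -0.01 over all genes tested. With ruxolitinib in CM, Jak3 fell by 0.71 ± 0.11 on the log2 scale (edgeR adjusted p = 0.002165), and with IKK-16, Jak2 fell by 0.81 ± 0.11 (edgeR adjusted p = 0.0004958), in each case as the only kinase called. Over all genes tested, 2.13% were called lower with ruxolitinib in CM and 3.66% with IKK-16.

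Of the 8 SOCS genes, which encode feedback inhibitors of JAKs and receptors, 6 passed the filter without CM samples. In CM, 3 of these were called higher and 1 lower, beside 20.9% and 24.1% of all genes tested. Socs3, which acts on the IL-6 receptor chain that activates STAT3, went from 11.2 ± 8.5 CPM in DMEM to 2114 ± 419 CPM in CM. Cish, a STAT5 target, and Socs2 were the 2 genes that passed the filter only through samples with CM. They are not among these calls. Cish had 0.135 ± 0.018 CPM in DMEM, which rests on 3 to 5 counts a sample, and 135 ± 12 CPM in CM. In CM + Rux, Cish fell by 1.05 ± 0.23 and Socs2 by 1.90 ± 0.40 on the log2 scale (edgeR adjusted p of 0.01798 and 0.01368), the 2 SOCS genes called, and Socs3 had a log2 fold change of -0.56 ± 0.37 that was not called. With IKK-16, Socs1 fell by 1.56 ± 0.12 and Cish by 0.83 ± 0.23 (edgeR adjusted p of 9.534e-06 and 0.02903). Of all genes tested, 2.13% were called lower in CM + Rux against CM and 3.66% with IKK-16. Ruxolitinib lowered Socs1 in DMEM (log2 fold change -1.76 ± 0.24, edgeR adjusted p = 0.0009758) and gave -0.26 ± 0.12 in CM, and these effects differed by 1.499 ± 0.271 (edgeR adjusted p = 0.03025). Without CM, Socs1 was low, at 0.913 CPM in DMEM (23 to 30 counts a sample) and 0.255 CPM in DMEM + Rux (4 to 13 counts).

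Irf9, the DNA-binding partner of STAT2 in ISGF3, also fell with ruxolitinib. Its levels were 84.3 ± 16.5 CPM in DMEM, 23.4 ± 0.88 in DMEM + Rux, 67.7 ± 7.7 in CM and 24.7 ± 2.7 in CM + Rux. The log2 fold changes were -1.84 ± 0.14 without CM and -1.46 ± 0.13 with it (edgeR adjusted p of 7.612e-06 and 4.105e-05). Of 14 partners and cofactors, Irf9 was the only gene called in CM + Rux against CM, and 2 were called in DMEM + Rux against DMEM, both lower. Over all genes tested, 2.13% and 0.97% were called lower in these comparisons. In CM against DMEM, 2 of the 14 partners were called higher and 2 lower (14.3% each), both shares below those of all genes tested (20.9% and 24.1%). The largest rise was that of Nfkb1 (log2 fold change 2.36 ± 0.14, edgeR adjusted p = 1.181e-08), which encodes an NF-κB subunit.

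Targets of ISGF3 were mostly lower with ruxolitinib. Of 25 genes, 24 were called lower in DMEM + Rux against DMEM and 19 in CM + Rux against CM, with 0 higher. Over all genes tested, 0.97% and 2.13% were called lower. The medians of the list were -3.41 and -2.18 beside 0.01 over all genes in both. Ifit3 went from 54.0 ± 28.7 to 1.38 ± 0.29 CPM without CM and from 5.53 ± 2.78 to 0.343 ± 0.159 CPM with it. In CM against DMEM, 9 of the 25 were called lower and 0 higher, beside 24.1% and 20.9% of all genes tested. Usp18, which blocks the interferon receptor and belongs to this list, fell by 3.25 ± 0.35 with ruxolitinib in CM and by 2.89 ± 0.34 in DMEM on the log2 scale (edgeR adjusted p of 0.0001233 and 0.0002315). With IKK-16, 2 of the 25 were called lower, beside 3.66% of all genes tested.

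Targets of STAT3, STAT5 and STAT6 that passed the filter without CM samples numbered 20, 17 and 12. In CM against DMEM, 16, 10 and 5 of these were called higher and 2, 4 and 3 lower, beside 20.9% and 24.1% of all genes tested. The lower calls were near or below the share of all genes. The lists share genes such as Socs1, Il4ra and Bcl6 with each other or with other lists, and many of these genes answer to other factors too. Counts with the inhibitors are out of all targets tested, 21 for STAT3, 22 for STAT5 and 15 for STAT6. With ruxolitinib in CM, 3 STAT3 targets were called lower, led by Il4ra, from 963 ± 225 to 432 ± 137 CPM. For STAT5, 5 targets were called lower, led by Tnfrsf9, from 124.5 ± 35.1 to 28.6 ± 19.1 CPM. For STAT6, 3 targets were called lower, led by Mrc1, from 143 ± 63 to 55.9 ± 14.2 CPM. With ruxolitinib in CM the targets called higher were 1 STAT5 target (Pim2) and 1 STAT6 target (Ch25h). Over all genes tested, 2.13% were called lower and 1.2% higher with ruxolitinib in CM, and 3.66% lower and 4.07% higher with IKK-16. With IKK-16, 7 STAT3 targets, 6 STAT5 targets and 5 STAT6 targets were called lower, among them Lcn2, from 8.49 ± 2.71 to 0.914 ± 0.31 CPM, and Il2ra, from 3.49 ± 0.58 to 0.725 ± 0.138 CPM, while 2 STAT5 targets were called higher, led by Ccnd1.

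Of 28 cytokines that signal through STATs, 12 were tested, and 9 of these passed the filter only through samples with CM, so no count of calls is given for them. Il6, a STAT3-activating cytokine, had 0 counts in all DMEM samples and 219 ± 111 CPM in CM, 314 ± 109 CPM in CM + Rux and 64.4 ± 41 CPM in CM + Rux + IKK-16. Csf2, which encodes GM-CSF, an activator of STAT5, had 0.0618 ± 0.0248 CPM in CM (1 to 3 counts), 0.962 ± 0.238 in CM + Rux, 0.0883 ± 0.1045 with IKK-16 and 5.74 ± 2.62 in the 2 h samples. Both Csf2 and Stat5a were highest in the 2 h samples, while Stat5a was level between CM and CM + Rux (119.8 and 118.7 CPM). A link between these genes was not tested. Of 25 receptors tested from a list of 36, 24 passed the filter without CM samples, and 11 of these were called higher and 4 lower in CM, beside 20.9% and 24.1% of all genes tested. With ruxolitinib in CM, 5 of the 25 were called lower, beside 2.13% of all genes. Of 14 other inhibitors, among them phosphatases and PIAS proteins, 4 were called higher in CM, led by Ptpn1, from 141 ± 10 to 552 ± 49 CPM, and 4 lower. These shares (28.6% each) are near those of all genes tested.

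**Figure D4:**
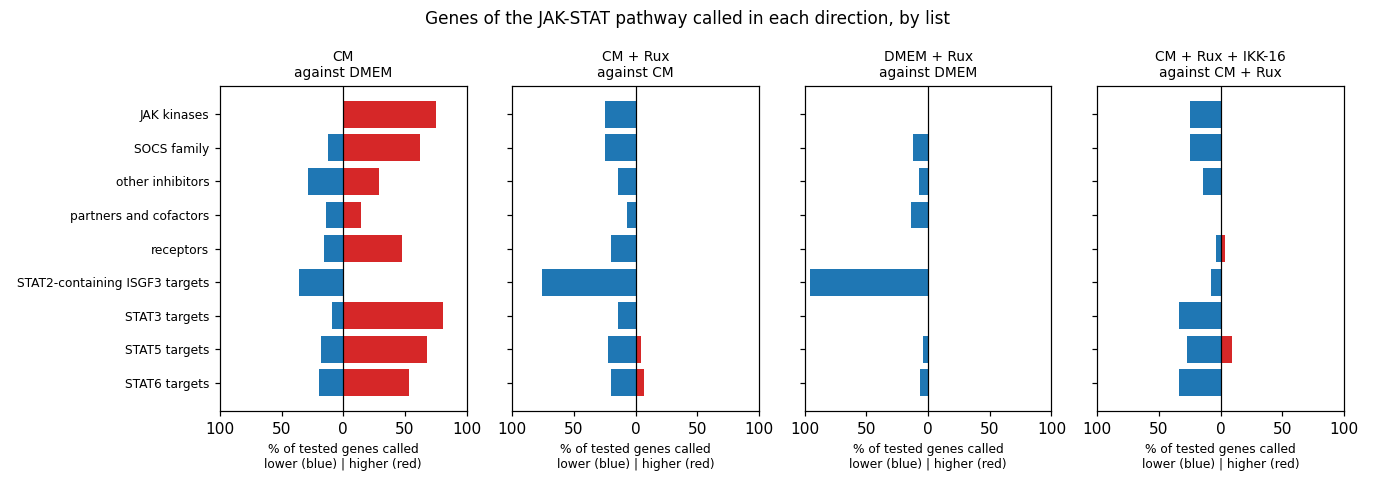
Percent of the tested genes of each list called higher (red, to the right) or lower (blue, to the left) in 4 comparisons, for the 9 lists of which most tested genes passed the filter without CM samples. The longest blue bars are the ISGF3 targets lower with ruxolitinib (24 of 25 in DMEM and 19 of 25 in CM), and bars for CM against DMEM include genes that passed the filter only through CM.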

How the data were processed

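RNA of mouse BMDMs was sequenced from TruSeq stranded mRNA libraries. Per the labels and the study's methods, the authors trimmed reads with Trimmomatic 0.33, aligned them to GRCm38 with HISAT2 2.1.0 and made the deposited table of raw counts per gene with featureCounts 1.6.2 and the Ensembl 100 annotation (both ends mapped, reverse strand, mapping quality of at least 10, no fragments with several alignments or genes). Symbols were found for 55141 of 55487 identifiers.

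Here counts were scaled by RLE, genes had to exceed 1 CPM in 2 or more samples, and 1 quasi-likelihood model of all 16 samples in 6 groups was fitted with edgeR 4.0.16 (R 4.3.3, limma 3.58.1). Normalization, filter and thresholds follow the study's methods. Python 3.11.15, pandas 2.3.3, numpy 2.4.6, Biopython 1.88 and matplotlib 3.10.9 served the other steps. The script was tested on simulated data. Samples were grouped by label. Replicates differed by more than counting noise (chi-square per degree of freedom 14.2 to 54.4).

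Replicate numbers come from the sample titles. Among the 4 groups of 3 samples, which share 3 numbers, same-numbered samples deviated together in every pair (correlation 0.17 to 0.63). The numbers were therefore taken to pair them. The main tests, by group only, ignore this pairing, and the replicate block among the alternatives includes it. DMEM and the 2 h group share fewer numbers.

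Every member is named. From each pathway list the genes with the largest rise and fall among those called were eligible to be named, plus Jak1, Jak2, Jak3, Tyk2, Irf9, Socs1, Socs2, Socs3 and Cish, plus the 3 genes nearest to each member. Members, lists and tests were chosen with earlier results of these data known. Alternatives were TMM, total counts alone, no filter, filterByExpr, the replicate block, only the groups compared, the likelihood ratio test, DESeq2 1.42.0, no fold limit and each sample left out. Protein sequences were not used here, and other genes of the family are not reported here.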

Additional observations from a re-analysis of the deposited data

How the results depend on the processing

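Over 432 comparisons of a member's log2 fold change under an alternative setting, 412 kept the direction and the side of the threshold, as did 264 of 288 with a sample left out. The number of members called moved most in CM + Rux 2 h against CM + Rux, where 3 became 4 with no filter, the block, DESeq2 or no fold limit, 2 in a model of only the groups compared, and 2 to 4 with a sample left out. Without a fold limit 5 in place of 3 were called in CM + Rux 2 h against CM, 4 in place of 3 in CM against DMEM and 3 in place of 2 with IKK-16. Leaving out samples gave 3 to 4 in CM + Rux 2 h against CM and 3 to 4 in CM + Rux against DMEM. In CM + Rux against CM, 0 were called in a model of only the groups compared, and leaving out samples gave 0 to 1. In CM + Rux + IKK-16 against CM + Rux, leaving out samples gave 1 to 2. The models of only the groups compared and the fits with a sample left out hold fewer samples and so estimate the spread from fewer. Where a sample left out leaves 1 in a group, that sample was assumed to vary like the other groups.

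The directions that turned belonged to log2 fold changes that no setting called, although Stat6 with total counts alone passed the test below the fold limit. In CM against DMEM, Stat2 had -0.29 with total counts alone and -0.25 to 0.35 with samples left out, and Stat6 had 0.002 without a filter, 0.0034 with filterByExpr, 0.0024 with the replicate block and -0.0322 to 0.024 with samples left out. In CM + Rux against CM, Stat5a had 0.0103 with total counts alone and -0.1178 to 0.0539 with samples left out, and Stat6 -0.0025 to 0.0289. In CM + Rux against DMEM, Stat6 had -0.0009 with TMM and -0.28 with total counts alone, -0.0194 to 0.0369 with samples left out, and Stat5b had -0.11 with total counts alone. In DMEM + Rux against DMEM, Stat6 had -0.0437 to 0.0113 with samples left out. The cause was not tested.

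With the replicate number as a block, Stat4 in CM + Rux 2 h against CM + Rux was the only member call gained (-0.86) and none was lost. Below the fold limit, Stat3 in CM + Rux against CM, Stat5b in CM + Rux against DMEM and Stat2 in CM + Rux 2 h against CM + Rux passed the test with the block only (adjusted p of 0.03049, 0.0159 and 0.04804). In CM + Rux 2 h against CM + Rux, Stat4 was also called with total counts alone, no filter and DESeq2 (-0.84, -0.77 and -0.79). Without CM + Rux 2 h replicate 2 its log2 fold change was -1.43. The block raised the number of all genes called from 412 to 745 in CM + Rux against CM and from 51 to 444 for the difference between the effects of ruxolitinib, where DMEM shares only 2 numbers. All 16 samples deviated most like those with their own number. DESeq2 called 147 genes higher and 87 lower for that difference, where edgeR called 29 and 22. Without division by exon length the Stat5a to Stat5b ratio was 0.499 in DMEM, 1.597 in CM, 0.887 with IKK-16 and 2.81 at 2 h, so Stat5a led in the same groups. On that scale Stat3 held more than Stat6 in CM (48.3% against 26.7%) and in CM + Rux (44.8% against 31.2%). Depth limited only Stat4 in DMEM and DMEM + Rux (68 to 130 counts).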
